A study of Mus musculus with 38 samples.

Results

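Bone marrow-derived macrophages (BMDM), primary cells of wild-type mice, were sequenced after 16 h in hypoxia (below 0.1% oxygen) and in normoxia (21% oxygen). The 4 libraries of these macrophages in monoculture, 2 at each oxygen level, were picked from the 38 mouse libraries of the series by their column names in the deposited count table. The macrophages and the cells compared with them were kept in DMEM with GlutaMAX, antibiotics and fetal bovine serum, 10% for BMDM and 2% for BV2 cells, an immortalised microglial line. Other pairs of groups serve for comparison: 6 BMDM libraries from direct co-culture with GL261 glioma cells, 4 BMDM libraries with dimethyl sulfoxide (DMSO) as vehicle, and 4 libraries of BV2 monocultures, each at the same oxygen levels for 16 h. Before extraction of RNA the cells were fixed with glyoxal, and the libraries were made from poly(A) RNA. The labels do not say whether the replicates of a group came from separate animals or cultures, so p-values measure the spread between these libraries, which may be technical.

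Cells sense oxygen through prolyl hydroxylases of the EGLN family, which mark the alpha subunits of hypoxia-inducible factors (HIF) for destruction by the von Hippel-Lindau ubiquitin ligase while oxygen is present. Without oxygen, the alpha subunits persist, pair with ARNT and bind a short element with the core ACGTG or GCGTG near genes of glucose use, blood vessel growth and mitochondrial turnover. Macrophages gather in poorly perfused tissue such as tumours and wounds, where they rely on glycolysis and release vessel growth factors and inflammatory mediators.

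The 4 libraries held 14695000 to 17000500 counts (to 6 significant digits) and 18799 to 19204 genes with at least 1 count. A floor of 3 counts corresponds to 0.176 to 0.204 CPM (counts scaled to a common library size), for counting error only. Defining macrophage genes were high at both oxygen levels: the summed CPM of 10 markers was 18030 and 16390 in normoxia and 15600 and 12720 in hypoxia, with Csf1r, Adgre1 and Lyz2 among them, and 1 of the 10 passed the test upward (Cd14) and 1 downward (Fcgr1). Both calls were lost when any 1 of the 4 libraries was left out, and that of Cd14 also without 2 single co-culture libraries (adjusted p 0.0568 to 0.326 and 0.0553 to 0.177). Lists of T and natural killer cell, B cell, dendritic cell and mast cell markers summed to at most 3.12 CPM in every library. The neutrophil list was carried by Csf3r, with 6 of its 10 markers at 0 in all 4 libraries. Monocyte markers summed to 64.8 and 47.1 CPM in normoxia and 190.9 and 177.9 in hypoxia, mostly through Nr4a1, while Ly6c2 was at 0. Stromal markers, mainly the collagen gene Col1a1, summed to 133 and 170.2 against 105 and 226 CPM, and erythroid and megakaryocyte markers to 71.6 and 77.5 against 127 and 107. The osteoclast, endothelial and glial lists summed to 28.9 to 51.5, 7.12 to 13.4 and 147 to 281.5 CPM, the last through Nes and Cspg4 with Olig2 and Sox10 at 0. The part of these other markers in the results below was not tested. Mitochondrially encoded reads made up 1.12% and 0.877% of counts in normoxia and 0.6% and 0.407% in hypoxia, and the 20 most abundant genes 9.86% and 11.1% against 13.4% and 14.6%.

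Hypoxia changed many genes in both directions. Of 14806 genes tested with edgeR's quasi-likelihood F test, 3542 passed an adjusted p of 0.05 (23.9%), with 1967 higher in hypoxia (13.3%) and 1575 lower (10.6%). None of the called genes overlapped between the groups, but the groups did not overlap for 71.6% of all genes tested either. Rises were larger than falls: 1178 called genes were at least 2-fold higher (7.96%) and 766 at least 2-fold lower (5.17%), and 472 were at least 4-fold higher and 79 at least 4-fold lower. Bulk RNA cannot tell fewer cells of a state from less RNA per cell. The median log2 fold change of all genes was 0.03; scaled by library totals in place of TMM factors it was -0.21, and the split became 1283 higher and 2958 lower. The spread was estimated together with the co-culture libraries. Fitting the 4 monoculture libraries alone called 6289 of 13237 genes (47.5%), and leaving out normoxia replicate 1, normoxia replicate 2, hypoxia replicate 1 or hypoxia replicate 2 called 1288, 1567, 1538 and 1329, respectively. The same order is used wherever 4 leave-one-out values are listed below.

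**Figure D1:**
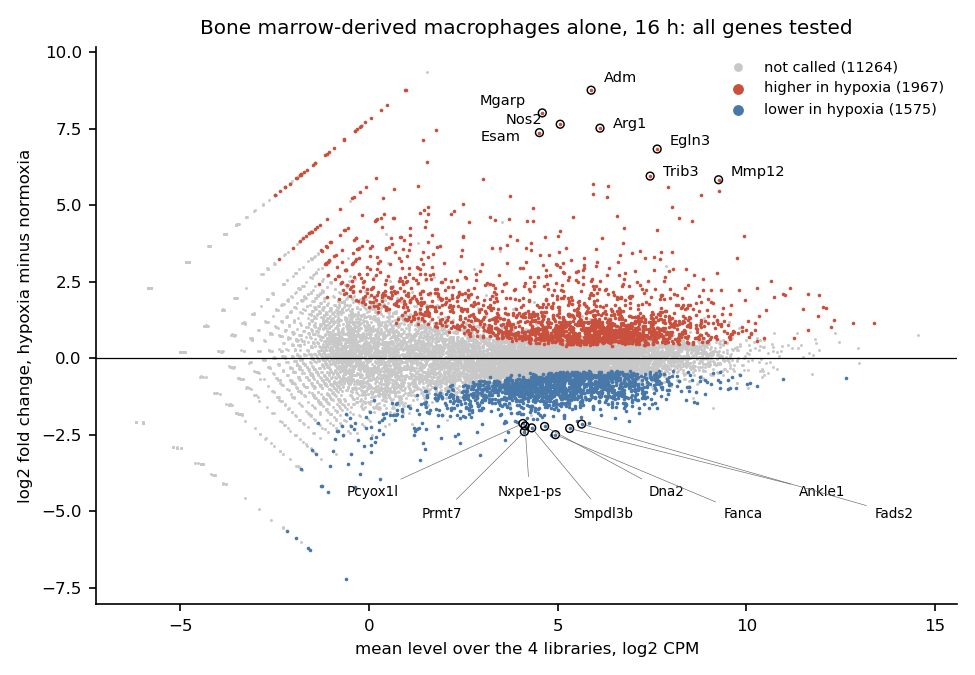
Each point is a gene tested, with its mean level over the 4 libraries (log2 CPM) on the horizontal axis and its log2 fold change, hypoxia minus normoxia, on the vertical axis. Red and blue points passed an adjusted p of 0.05 (1967 higher, 1575 lower), and circles mark the 8 largest rises and 8 largest falls among called genes whose mean log2 CPM reached 4; the straight diagonals at low levels are genes with all counts of a group at 0, whose fitted fold depends on a prior count.

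Among called genes whose mean log2 CPM reached 4, predicted genes left aside, the largest rise was in Adm, which encodes the vasodilator peptide adrenomedullin (ENSMUSG00000030790, GRCm38 chromosome 7, 110627661 to 110629820). Adm stood at 0.383 and 0.126 CPM in normoxia and at 127 and 109 CPM in hypoxia (log2 fold change 8.77, SE 0.58, adjusted p = 1.02e-05). Mgarp, a mitochondrial protein gene (chromosome 3, 51388412 to 51396738), had 3 counts in each normoxic library and 719 and 634 in hypoxia, a ratio of 273 with a 95% counting interval of 125 to 745. Both hypoxic libraries were far above both normoxic ones for these genes. Esam, a junctional adhesion molecule, rose from 0.164 and 0.378 CPM to 51.1 and 39.9 (7.38, SE 0.49, adjusted p = 1.02e-05). Egln3, an oxygen-sensing prolyl hydroxylase, stood at 3.28 and 3.59 CPM in normoxia and 404 and 385.5 in hypoxia (6.84, SE 0.64, adjusted p = 7.03e-05). These 4 genes kept their call whichever library was left out. In the same set the falls were smaller, and that of Fanca was the largest. Fanca, of the Fanconi anaemia DNA repair complex (chromosome 8, 123268300 to 123318576), fell from 51.0 and 53.4 CPM to 8.15 and 10.4 (-2.49, SE 0.18, adjusted p = 1.55e-05). With 7.29% of its 75-base words found in other genes, its level is less certain. Prmt7, a protein arginine methyltransferase, Ankle1, a DNA endonuclease, Smpdl3b, a membrane phosphodiesterase, Dna2, a replication helicase and nuclease, the pseudogene Nxpe1-ps, the fatty acid desaturase Fads2 and Pcyox1l followed with log2 fold changes of -2.39 to -2.13, and all 8 falls kept their call in every leave-one-out fit.

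Feedback genes of the oxygen-sensing machinery rose. Of 11 tested genes of the HIF pathway 5 rose and none fell (median log2 fold change 0.59, against 0.03 for all genes). Egln1, the main HIF prolyl hydroxylase, stood at 61.1 and 58.3 CPM in normoxia and 470 and 403 in hypoxia (2.87, SE 0.20, adjusted p = 1.20e-05), and Vhl at 17.9 and 17.1 against 36.0 and 32.5 (0.96, SE 0.17, adjusted p = 0.00308; 0.0524 without normoxia replicate 2). The transcript of Hif1a was not called: it had 34.6 and 40.4 CPM in normoxia and 25.4 and 37.1 in hypoxia, and the groups overlapped (-0.26, SE 0.32, adjusted p = 0.601). Epas1, which encodes HIF-2 alpha, was not called either, at 15.2 and 13.2 against 14.7 and 14.8 CPM (0.06, SE 0.23, adjusted p = 0.886). In the 4 leave-one-out fits the list had 4, 2, 3 and 4 genes higher.

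The promoters of several of these genes are shown because ACGTG and GCGTG are the core letters bound by HIF, read on both strands. The sequences are RefSeq windows on GRCm38.p6, 250 bases before to 50 after the start of the gene, written 5′ to 3′ on the gene's strand. Capitals mark a match to either motif or to its reverse complement (CACGT or CACGC). The windows are Adm at chr7:110627407-110627706 (plus strand), Mgarp at chr3:51396498-51396797 (minus), Egln3 at chr12:54203825-54204124 (minus), Slc2a1 at chr4:119108495-119108794 (plus), Bnip3 at chr7:138909457-138909756 (minus), and Fanca, which fell, at chr8:123318527-123318826 (minus).
Adm: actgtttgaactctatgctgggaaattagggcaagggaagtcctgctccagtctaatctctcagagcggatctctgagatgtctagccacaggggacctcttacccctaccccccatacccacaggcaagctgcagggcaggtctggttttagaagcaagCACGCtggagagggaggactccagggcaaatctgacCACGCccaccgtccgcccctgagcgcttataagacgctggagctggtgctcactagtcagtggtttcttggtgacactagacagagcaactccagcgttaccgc
Mgarp: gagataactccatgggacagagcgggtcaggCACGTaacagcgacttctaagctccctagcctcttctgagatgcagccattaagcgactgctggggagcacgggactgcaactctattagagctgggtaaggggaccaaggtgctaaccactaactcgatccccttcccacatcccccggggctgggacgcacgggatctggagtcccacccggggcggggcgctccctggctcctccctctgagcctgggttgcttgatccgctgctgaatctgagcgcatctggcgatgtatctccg
Egln3: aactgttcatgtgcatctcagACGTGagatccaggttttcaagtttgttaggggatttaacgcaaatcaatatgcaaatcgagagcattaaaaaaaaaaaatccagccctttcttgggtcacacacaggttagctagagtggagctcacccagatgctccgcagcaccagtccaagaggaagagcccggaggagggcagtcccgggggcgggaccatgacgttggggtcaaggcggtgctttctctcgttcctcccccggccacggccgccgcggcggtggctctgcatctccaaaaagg
Slc2a1: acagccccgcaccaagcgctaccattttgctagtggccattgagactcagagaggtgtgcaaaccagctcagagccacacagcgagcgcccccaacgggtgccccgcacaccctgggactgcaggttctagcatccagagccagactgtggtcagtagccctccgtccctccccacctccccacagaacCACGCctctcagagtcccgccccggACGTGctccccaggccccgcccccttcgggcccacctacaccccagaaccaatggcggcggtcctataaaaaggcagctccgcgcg
Bnip3: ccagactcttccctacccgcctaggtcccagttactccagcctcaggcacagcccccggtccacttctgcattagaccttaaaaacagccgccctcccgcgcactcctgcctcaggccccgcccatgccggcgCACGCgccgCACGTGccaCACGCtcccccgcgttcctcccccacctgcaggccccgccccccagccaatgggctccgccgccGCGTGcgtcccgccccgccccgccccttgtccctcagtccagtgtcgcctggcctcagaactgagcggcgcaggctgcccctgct
Fanca: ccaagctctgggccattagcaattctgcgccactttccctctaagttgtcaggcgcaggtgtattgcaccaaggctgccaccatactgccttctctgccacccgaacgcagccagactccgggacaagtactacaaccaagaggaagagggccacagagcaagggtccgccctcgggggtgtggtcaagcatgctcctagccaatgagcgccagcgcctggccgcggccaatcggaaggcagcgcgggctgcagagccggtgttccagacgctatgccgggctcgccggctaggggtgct
Adm held 2 matches, both of GCGTG, Slc2a1 held 1 of each motif, and Bnip3 held 5, of which the 2 of ACGTG are the strands of 1 palindrome. Fanca held none, which says only that these letters are not in this window. Other large falls had matches: Prmt7, Ankle1 and Dna2 held 2, 3 and 1 of GCGTG, and Smpdl3b 2 of ACGTG and 1 of GCGTG. Fads2 held none. Among the other largest rises Trib3 held 1 of GCGTG and Mmp12 none in either of its 2 windows. Nos2, Arg1, Esam, Nxpe1-ps and Pcyox1l had no window to read.

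Such matches are common: ACGTG was in 19.6% and either motif in 43.8% of all 32851 promoter windows. Entries were found for 10411 of the 14785 symbols tested. Among their windows ACGTG was in 25.1%, in 32.9% for genes called higher, 35.6% for those called at least 4-fold higher, 24.4% for those called lower and 23.7% for those not called. GCGTG was in 49.3% of windows of genes tested. It was in 50.6% for genes called higher, 46% for those called at least 4-fold higher and 51.7% for those called lower. Either motif was in 60.6%, 64.1%, 59.2% and 62.2% of windows of these sets, respectively. Shares varied between lists: ACGTG was in 47.4% of 38 windows of the glycolysis list, 72.7% of 11 of the glycogen list, 13.6% of 22 of the angiogenic list, 29% of 31 of the DNA replication list and 7.14% of 42 of the interferon list. A match is a description of letters and not a measured binding site.

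Most genes of glucose uptake and glycolysis rose. Of 26 tested genes 19 rose and none fell, with a median log2 fold change of 1.96, and each of the 4 leave-one-out fits also called 19 higher. Slc2a1, the main glucose transporter, had 109 and 125.6 CPM in normoxia and 1880 and 1840 in hypoxia (3.99, SE 0.34, adjusted p = 3.56e-05). Pfkfb3, which makes the activator of phosphofructokinase, went from 12.8 and 16.4 to 195 and 204 CPM (3.77, SE 0.63, adjusted p = 0.00218). Hexokinase Hk2 went from 42.2 and 43.8 to 467 and 488 CPM (3.47, SE 0.28, adjusted p = 2.37e-05). The replicates lay close together for all 3 genes and the groups were far apart. Ldha, which turns pyruvate into lactate, rose from 849 and 776 to 3518 and 3239 CPM (2.06, SE 0.18, adjusted p = 5.16e-05), and Pdk1, which keeps pyruvate out of mitochondria, from 45.0 and 54.9 to 281 and 296 (2.53, SE 0.18, adjusted p = 1.20e-05). The remaining genes were Slc2a6, Eno2, Pfkm, Slc16a1, Slc2a3, Pfkfb4 and Ldhb, at log2 fold changes of 0.61 to -0.84 and not called. Within enzyme families the values were unequal: Pfkp and Pfkl rose by 2.71 and 2.59 while the value for Pfkm was 0.05.

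Glycogen genes rose with them: 9 of 12 were higher and none lower (median 1.69), against 6 in each of the 4 leave-one-out fits. Glycogen synthase Gys1 went from 37.2 and 33.8 to 394 and 389 CPM (3.46, SE 0.37, adjusted p = 0.000164). The phosphoglucomutase Pgm1 went from 29.9 and 29.9 to 294 and 288 CPM (3.28, SE 0.27, adjusted p = 2.77e-05), and 11.4% of its 75-base words also occur elsewhere in the transcriptome. The glycogen-targeting subunit Ppp1r3c was at 0 counts in both normoxic libraries and at 18 and 9 in hypoxia, at least 5.44-fold higher against a floor of 3 counts per library; its call was lost in all 4 leave-one-out fits (adjusted p 0.0719 to 0.154). Gbe1, the branching enzyme, rose by 2.82 and Pygl, the phosphorylase that breaks glycogen down, by 1.82, so both arms of the pathway were represented.

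Vessel growth and vasoactive factors rose in part. Of 26 tested genes 12 rose and none fell (median 0.82), but the 4 leave-one-out fits called 5, 5, 7 and 5. Vegfa, the central vessel growth factor, had 36.9 and 28.0 CPM in normoxia and 766 and 687 in hypoxia (4.48, SE 0.32, adjusted p = 1.43e-05). Ndrg1, a stress-responsive gene of the same list, went from 28.8 and 26.4 to 1189 and 1258 CPM (5.47, SE 0.44, adjusted p = 2.38e-05). Stc2, a secreted glycoprotein hormone, was at 0 counts in both normoxic libraries and at 14 and 30 in hypoxia, at least 8.87-fold higher; its call was lost without normoxia replicate 1, normoxia replicate 2 or hypoxia replicate 2 (adjusted p 0.06 to 0.0727). Apln, which encodes the ligand apelin, had 3 and 1 counts in normoxia and 55 and 30 in hypoxia, a ratio of 25.7 with a 95% counting interval of 9.68 to 96.5. Vegfc, Pdgfa and Pdgfb had log2 fold changes of -0.23, -0.65 and 0.27, none of them called, and Vegfb rose by 0.73.

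Receptors of mitochondrial turnover rose. In the mitophagy and autophagy list 9 of 19 rose and 1 fell (median 0.85; 8, 9, 9 and 9 higher in the leave-one-out fits). Bnip3, a receptor that targets mitochondria for autophagy, went from 17.4 and 15.2 to 516 and 494 CPM (4.95, SE 0.23, adjusted p = 2.66e-06) and its relative Bnip3l from 45.8 and 46.3 to 245 and 241 (2.40, SE 0.19, adjusted p = 2.37e-05). Both share sequence with other genes, 34.4% and 16.9% of their words. The 1 fall was Phb2, a mitochondrial inner membrane protein (-0.57), lost in all 4 leave-one-out fits (adjusted p 0.0926 to 0.166).

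Among 49 tested nuclear-encoded genes of the respiratory chain 10 fell and 2 rose, with a median of -0.29. The share called in either direction was 24.5%, near the 23.9% of all genes tested. The falls depended on the fit: 25 with the 4 monoculture libraries alone, 26 with library totals, and 0, 3, 0 and 0 when 1 of the 4 was left out. The rises were Ndufa4l2 and Cox4i2, variant respiratory chain subunits known as products of low oxygen. Ndufa4l2 was at 0 in both normoxic libraries and at 37 and 21 counts in hypoxia, at least 11.7-fold higher, and Cox4i2 went from 0.274 and 0.441 to 4.58 and 1.94 CPM (3.17, SE 0.73, adjusted p = 0.011; 0.0566 to 0.10 without hypoxia replicate 1, normoxia replicate 1 or normoxia replicate 2). Of the common forms, Ndufa4 fell from 74.3 and 65.8 to 38.0 and 36.4 CPM (-0.91, SE 0.21, adjusted p = 0.0109; 0.0605 to 0.0819 without normoxia replicate 1 or either hypoxic library) and Cox4i1 at 261 against 244 CPM, not called. None of 10 tested mitochondrially encoded transcripts was called in the main edgeR fit (median -0.82), and DESeq2 called 0 as well. In other edgeR fits 6 fell with the 4 libraries alone, 5 with a replicate block, 5 with a filter at 1 count and 1 with library totals. The share of mitochondrial reads given above moved with these transcripts.

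Enzymes that use oxygen themselves rose in part. Among 24 tested dioxygenases, 13 rose and 1 fell (median 0.61; 8 higher in each leave-one-out fit). P4ha2, a collagen prolyl hydroxylase, went from 8.10 and 11.5 to 459 and 484 CPM (5.59, SE 0.33, adjusted p = 7.58e-06), and the lysyl hydroxylase Plod2 from 2.08 and 4.598 to 71.9 and 90.1 (4.61, SE 0.42, adjusted p = 5.77e-05). The histone demethylases Kdm6b and Kdm3a rose by 3.56 and 2.51, the latter from 37.3 and 45.3 to 222 and 248 CPM. Kdm2b fell by 0.93; this call was lost without hypoxia replicate 1 or normoxia replicate 1 (adjusted p 0.0527 to 0.08). The methylcytosine oxidases Tet2 and Tet3 had log2 fold changes of 0.43 and -0.04 and were not called.

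The unfolded protein and integrated stress responses, which slow translation and raise folding capacity when the endoplasmic reticulum is under load, rose in most of their genes. Of 30 tested genes 27 rose and none fell, with a median of 1.84; the leave-one-out fits called 21, 19, 22 and 20. Trib3, a pseudokinase induced late in this response, went from 4.49 and 6.61 to 342 and 347 CPM (5.96, SE 0.35, adjusted p = 7.10e-06). Ero1l, the oxidase that forms disulfide bonds, went from 21.6 and 21.3 to 805 and 922 (5.33, SE 0.42, adjusted p = 2.37e-05). Ddit3, which encodes CHOP, went from 19.2 and 22.0 to 295 and 464 (4.20, SE 0.44, adjusted p = 0.000138); its symbol has 2 identifiers and reads could be split between them. The chaperone Hspa5, named after its values were seen, went from 1274 and 1114 to 4799 and 5508 CPM (2.11, SE 0.38, adjusted p = 0.003). Ddit4, an inhibitor of the mTORC1 kinase, rose from 7.39 and 10.2 to 129 and 142 CPM (3.95, SE 0.25, adjusted p = 7.58e-06). The 3 genes not called were Slc7a11, Phgdh and Psat1, the last at 33.5 against 15.9 CPM.

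**Figure D2:**
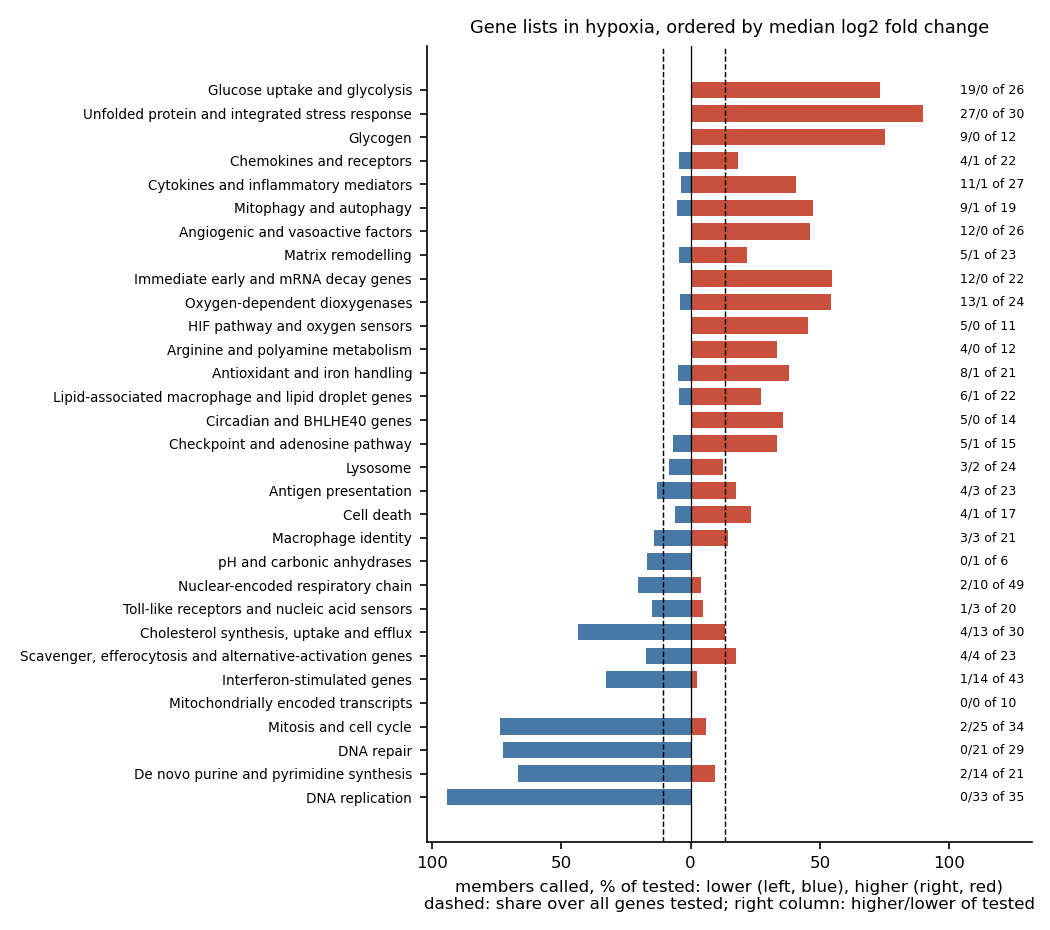
Bars give, for each gene list, the percentage of tested members called higher (right, red) or lower (left, blue) in hypoxia; dashed lines mark the shares over all genes tested (13.3% higher, 10.6% lower), and lists are ordered by their median log2 fold change. Replication, nucleotide synthesis, repair and mitosis lie at the foot and the stress response, glycolysis and glycogen at the head.

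Genes of cell division fell. Of 35 tested DNA replication genes 33 fell and none rose (median -1.29; 24, 29, 23 and 26 lower in the leave-one-out fits). Thymidylate synthase Tyms went from 59.7 and 53.9 to 13.5 and 17.4 CPM (-1.88, SE 0.26, adjusted p = 0.000842), the ribonucleotide reductase subunit Rrm2 from 182 and 162 to 51.0 and 53.4 (-1.72, SE 0.28, adjusted p = 0.002), and the helicase subunit Mcm5 from 282 and 238 to 73.5 and 94.4 (-1.63, SE 0.29, adjusted p = 0.00314). In each case both hypoxic libraries were below both normoxic ones. In the mitosis and cell cycle list 25 of 34 fell and 2 rose (median -1.09), but the falls dropped to 8, 18, 6 and 12 in the leave-one-out fits. Cyclin E1 (Ccne1) fell from 33.3 and 36.5 to 8.29 and 9.53 CPM (-1.97, SE 0.28, adjusted p = 0.00101). The proliferation marker Mki67 went from 1005 and 999.9 to 417 and 597 CPM (-0.98, SE 0.31, adjusted p = 0.0402), and its call was lost in all 4 leave-one-out fits (0.0714 to 0.229). The 2 rises were inhibitors of cyclin-dependent kinases: Cdkn1b went from 59.1 and 53.8 to 130.1 and 151.4 CPM (1.32, SE 0.15, adjusted p = 0.000296) and Cdkn1a from 491 and 534 to 857 and 979 (0.84, SE 0.25, adjusted p = 0.0323). The Cdkn1a call did not hold with library totals (0.0861) or in any of the 4 leave-one-out fits (0.0989 to 0.215).

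DNA repair and nucleotide synthesis fell beside replication. Of 29 repair genes 21 fell and none rose (median -1.11; 11, 13, 10 and 14 lower in the leave-one-out fits), led by Fanca, Fancb (-2.31) and the exonuclease Exo1 (-1.85; adjusted p 0.05, not called, without hypoxia replicate 1). Fancb went from 5.04 and 4.47 to 0.80 and 1.11 CPM. Brca1 and Brca2, which act in homologous recombination, had log2 fold changes of -0.94 and -1.35. In purine and pyrimidine synthesis 14 of 21 fell and 2 rose (median -1.17; 9, 12, 7 and 9 lower). Ctps, which makes CTP, went from 20.6 and 21.3 to 4.001 and 2.556 CPM (-2.67, SE 0.51, adjusted p = 0.00452; 0.0536 without hypoxia replicate 2). The cytosolic folate enzyme Mthfd1 fell from 59.1 and 54.2 to 16.3 and 15.2 CPM (-1.85), while its mitochondrial relative Mthfd1l rose from 27.4 and 34.3 to 136 and 127 (2.09, SE 0.40, adjusted p = 0.00447; 0.0614 without normoxia replicate 1). The other rise was Impdh1 (1.47), whose sister gene Impdh2 had a log2 fold change of -1.42.

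Interferon-stimulated genes that passed the test were mostly lower. Of 43 tested genes 14 fell and 1 rose (median -0.82); 29 fell in the fit of the 4 libraries alone, and the leave-one-out fits called 12, 4, 3 and 3 lower. The antiviral GTPase Mx1 stood at 4.43 and 13.1 CPM in normoxia and 1.02 and 2.07 in hypoxia (-2.48, SE 0.66, adjusted p = 0.0206; 0.0649 to 0.148 without normoxia replicate 2 or either hypoxic library). Ifi47, an interferon-induced GTPase, fell from 16.9 and 18.5 to 5.53 and 4.49 CPM (-1.82, SE 0.35, adjusted p = 0.00463). The rise was Isg20, an RNA exonuclease, from 4.05 and 4.598 to 16.4 and 14.4 CPM (1.83, SE 0.35, adjusted p = 0.00468; 0.0594 without normoxia replicate 1). Irf7 and Ifit1 had log2 fold changes of -0.73 and -1.03 with adjusted p of 0.211 and 0.0648, and of 0.00892 and 0.0217 with the 4 libraries alone. Cxcl10 was at 7.23 and 11.5 against 4.87 and 6.01 CPM, not called (-0.78, adjusted p = 0.134). Among 20 Toll-like receptors and nucleic acid sensors 3 fell and 1 rose (median -0.33), close to the background shares; 1, 2, 1 and 2 fell and 1, 0, 1 and 1 rose in the leave-one-out fits. The cytosolic DNA sensor Cgas fell from 26.1 and 30.8 to 8.51 and 10.8 CPM (-1.56, SE 0.24, adjusted p = 0.00139), while Tlr4 was not called (0.33, adjusted p = 0.126).

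Of 27 tested cytokine and mediator genes 11 rose and 1 fell (median 1.16; 4, 6, 7 and 5 higher and 0, 1, 1 and 0 lower in the leave-one-out fits). Ptgs2, the inducible cyclooxygenase, went from 3.12 and 3.90 to 64.2 and 62.4 CPM (4.17, SE 1.28, adjusted p = 0.037). This call was lost in all 4 leave-one-out fits (0.098 to 0.194). Lif, a cytokine of the interleukin 6 family, went from 0.602 and 0.441 to 8.95 and 4.77 CPM (3.68, SE 0.65, adjusted p = 0.0028). Il1b, which encodes interleukin 1 beta, was higher in both hypoxic libraries, at 1.095 and 0.882 CPM in normoxia against 26.3 and 17.3, but was not called in the shared fit (4.45, SE 1.91, adjusted p = 0.116) and was called with the 4 libraries alone (1.51e-05). Tnf stood at 73.5 and 95.3 against 45.2 and 69.5 CPM (-0.56, SE 0.49, adjusted p = 0.45), and Il10 at 8.32 and 8.88 against 12.8 and 6.56 (0.17, adjusted p = 0.777). Il6 had 0 and 1 counts in normoxia and was not called.

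Chemokines gave 4 higher and 1 lower of 22 (median 1.16; 2, 3, 4 and 3 higher and 1, 1, 0 and 0 lower in the leave-one-out fits), near the background, and 11 higher and 5 lower with the 4 libraries alone. Ackr3, a scavenger receptor for CXCL12, was at 0 in both normoxic libraries and at 63 and 46 counts in hypoxia, at least 22-fold higher. Cxcr4, the signalling receptor for the same ligand, went from 101.7 and 102.4 to 304 and 500.5 CPM (1.98, SE 0.41, adjusted p = 0.00627; 0.0518 to 0.0591 without hypoxia replicate 2 or either normoxic library). Cxcl14 fell from 176 and 175 to 76.5 and 78.0 CPM (-1.18, SE 0.28, adjusted p = 0.0117; 0.0675 and 0.0709 without 1 or the other hypoxic library). Ccl2 overlapped between the groups. Immediate early genes rose in 12 of 22 and fell in none (median 0.69; 8, 7, 7 and 9 higher), led by Ier3, from 23.9 and 23.2 to 635 and 507 CPM (4.60, SE 0.79, adjusted p = 0.00251), and the leucine zipper genes Maff (3.79) and Fosb (3.44). Fos and Egr1, of the same list, were not called at 0.15 and -0.58.

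Arginine is a branch point of macrophage metabolism, used by Nos2 to make nitric oxide and by Arg1 to make ornithine, and both genes rose from near the floor. Nos2 (chromosome 11, 78920787 to 78960254) went from 0.274 and 0.378 to 71.9 and 61.5 CPM (7.65, SE 1.78, adjusted p = 0.0112). Arg1 (chromosome 10, 24915221 to 24927484) went from 0.219 and 1.32 to 180 and 97.3 CPM (7.52, SE 2.27, adjusted p = 0.0344). Within the monocultures the replicates of Nos2 differed little, and those of Arg1 differed more. With the 4 libraries alone, where the spread is not shared with the co-cultures, the adjusted p was 2.65e-07 for Nos2 and 1.28e-05 for Arg1. The Nos2 call was lost without normoxia replicate 1 or 2 (0.0977 and 0.0818) and the Arg1 call in all 4 leave-one-out fits (0.0762 to 0.196). Of 12 tested arginine and polyamine genes 4 rose and none fell (median 0.57; 1, 0, 1 and 1 higher in the leave-one-out fits). The ornithine decarboxylase Odc1 went from 97.7 and 66.8 to 176 and 192.5 CPM (1.16, SE 0.30, adjusted p = 0.0193). Its call did not hold with library totals (0.055) or without normoxia replicate 2 or either hypoxic library (0.0662 to 0.179), and 16.6% of its words are shared with other genes.

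**Figure D3:**
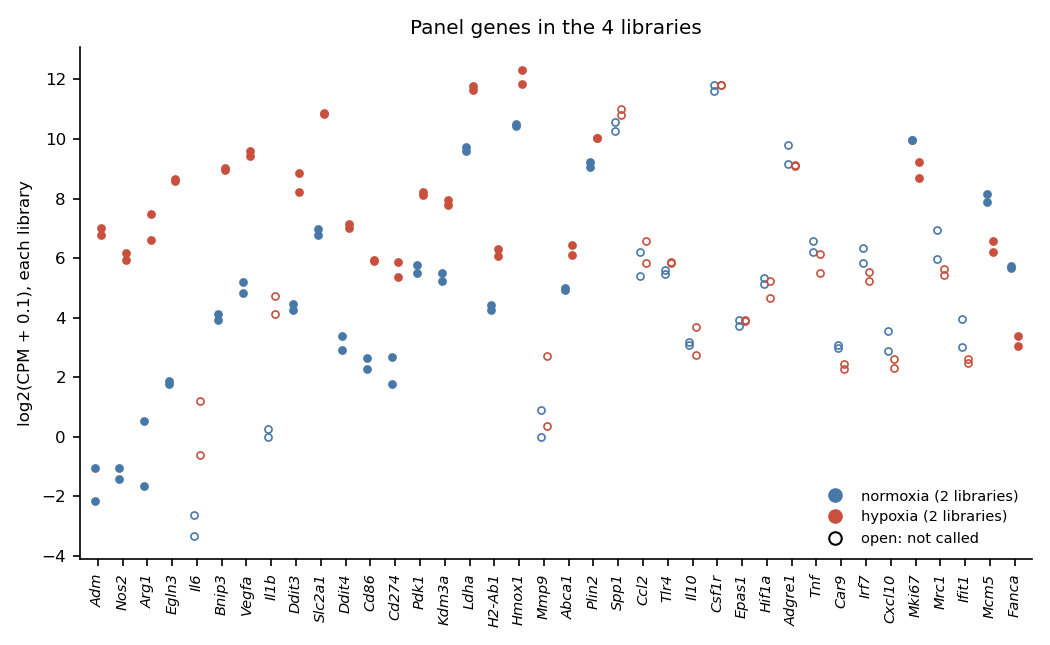
Each of 38 panel genes is shown with its level in each library as log2(CPM + 0.1), normoxia in blue and hypoxia in red, ordered by log2 fold change; open symbols mark genes that were not called. Adm, Nos2 and Arg1 lie near the floor in normoxia and reach 61.5 to 180 CPM in hypoxia, while Csf1r lies between 3125 and 3620 CPM in all 4 libraries.

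Among matrix genes a few metalloproteinases rose. Of 23 tested genes 5 rose and 1 fell (median 0.72; 1, 2, 4 and 2 higher in the leave-one-out fits). The share called was 26.1%, near the 23.9% of all genes tested. Mmp12, macrophage elastase, went from 12.8 and 29.6 to 1029 and 1390 CPM (5.84, SE 1.12, adjusted p = 0.00452; 0.0552 without normoxia replicate 1). DESeq2 gave no adjusted p for this gene or for Mmp13. The collagenase Mmp13 went from 2.41 and 3.97 to 113 and 203 CPM (5.64, SE 1.51, adjusted p = 0.0207; 0.0781 to 0.145 without hypoxia replicate 2 or either normoxic library). Mmp10 had 1 count in each normoxic library and 65 and 98 in hypoxia, a ratio of 98.6 with a 95% counting interval of 26.9 to 821; its call was lost in the same 3 fits (0.0535 to 0.0994). Mmp9 overlapped between the groups, at 1.75 and 0.882 against 6.47 and 1.17 CPM. The basement membrane collagen Col4a1 fell from 253 and 258.5 to 111 and 122 CPM (-1.13), lost in all 4 leave-one-out fits (0.053 to 0.0931).

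Macrophage identity genes showed no common direction: 3 of 21 rose and 3 fell (median 0.03), 1 rose and 2 fell in each of the 4 leave-one-out fits, and 1 rose and 5 fell with library totals. The share called was 28.6%, near the 23.9% of all genes tested. Lgals3, a galectin abundant in activated macrophages, rose from 1772 and 2394 to 5361 and 5643 CPM (1.40, SE 0.23, adjusted p = 0.00215). Aif1, which encodes the cytoskeletal protein IBA1, fell from 54.1 and 46.4 to 17.6 and 19.1 CPM (-1.45, SE 0.27, adjusted p = 0.00379), and the myeloid transcription factor Cebpa from 194 and 173 to 70.6 and 65.5 (-1.43, SE 0.21, adjusted p = 0.001). Csf1r, the receptor for macrophage colony-stimulating factor, was at 3569 and 3125 against 3620 and 3594 CPM and was not called (0.11, adjusted p = 0.758). Adgre1, which encodes F4/80, was at 895 and 565 against 544 and 563 CPM, also not called (-0.40, adjusted p = 0.381). Scavenger and efferocytosis genes gave 4 rises and 4 falls of 23 (median -0.59; 1, 0, 2 and 1 higher and 2, 3, 1 and 2 lower in the leave-one-out fits). The efferocytosis receptor Axl fell from 176 and 184 to 65.5 and 75.5 CPM (-1.35, SE 0.28, adjusted p = 0.00613; 0.0546 without hypoxia replicate 1). The mannose receptor Mrc1 was at 122 and 62.5 against 49.7 and 43.3 CPM, not called (-0.99, adjusted p = 0.113; 0.0122 with the 4 libraries alone).

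Antigen presentation was mixed, with 4 of 23 higher and 3 lower (median 0.22; 1, 1, 2 and 2 higher and 2, 3, 1 and 1 lower in the leave-one-out fits). The share called was 30.4%, near the 23.9% of all genes tested. Cd86, a costimulatory ligand for T cells, went from 6.08 and 4.79 to 61.0 and 60.2 CPM (3.47, SE 0.26, adjusted p = 2.01e-05) and kept its call in every leave-one-out fit. The class II chain H2-Ab1 went from 21.2 and 19.2 to 78.4 and 66.5 CPM (1.84, SE 0.39, adjusted p = 0.00723; 0.0622 and 0.0712 without 1 or the other normoxic library). The immunoproteasome subunits Psmb8 and Psmb9 fell by 0.72 and 0.86; Psmb8 lost its call without either hypoxic library (0.0536 and 0.0646) and Psmb9 without hypoxia replicate 1 (0.0815). Checkpoint and adenosine genes gave 5 rises and 1 fall of 15 (median 0.29; 3, 4, 4 and 3 higher and 0 lower in the leave-one-out fits). Cd274, which encodes the checkpoint ligand PD-L1, went from 3.28 and 6.36 to 40.8 and 58.9 CPM (3.38, SE 0.76, adjusted p = 0.00963; 0.0546 and 0.0978 without hypoxia replicate 2 or normoxia replicate 1). The poliovirus receptor gene Pvr rose from 17.4 and 17.3 to 59.9 and 62.2 (1.82, SE 0.25, adjusted p = 0.000799), and the T cell ligand Tnfsf9 by 1.76.

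Lipid genes were mixed. Of 22 lipid droplet and lipid-associated genes 6 rose and 1 fell (median 0.44; 4, 3, 4 and 4 higher and 0, 1, 0 and 0 lower in the leave-one-out fits). Hilpda, an inhibitor of triglyceride breakdown at lipid droplets, went from 4.16 and 3.90 to 158 and 153 CPM (5.26, SE 0.59, adjusted p = 0.000253), and the droplet coat gene Plin2 from 593 and 534 to 1039 and 1055 (0.89, SE 0.16, adjusted p = 0.00324; 0.0621 without normoxia replicate 2). Among 30 cholesterol genes 13 fell and 4 rose (median -0.53), with 2, 9, 2 and 3 lower and 1, 0, 3 and 1 higher in the leave-one-out fits. The falls included the synthesis genes Fdps (-2.26) and Idi1 (-1.65), with 23.5% and 23.6% of their words shared, and Nr1h3, the sterol receptor LXR alpha, from 38.97 and 38.92 to 14.7 and 12.6 CPM (-1.51, SE 0.39, adjusted p = 0.0174; 0.0576 to 0.114 in the leave-one-out fits). Idi1 lost its call without normoxia replicate 1 or either hypoxic library (0.0957 to 0.146). The cholesterol exporters rose, Abca1 from 31.9 and 30.4 to 68.0 and 85.8 CPM (1.30, SE 0.33, adjusted p = 0.0168) and Abcg1 from 44.7 and 45.0 to 125 and 135 (1.53, SE 0.35, adjusted p = 0.00983). Both export calls were lost without hypoxia replicate 2 or either normoxic library (0.0994 to 0.115 and 0.0597 to 0.0777).

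Smaller lists followed. Antioxidant and iron genes rose in 8 of 21 and fell in 1 (median 0.52; 1, 0, 1 and 2 higher), with heme oxygenase Hmox1 going from 1380 and 1463 to 5072 and 3663 CPM (1.62, SE 0.37, adjusted p = 0.0105; 0.0762 to 0.0945 without hypoxia replicate 1 or either normoxic library) and the transferrin receptor Tfrc falling from 31.0 and 27.9 to 13.02 and 9.327 (-1.40, lost in all 4 leave-one-out fits at 0.075 to 0.185). Circadian genes rose in 5 of 14 and fell in none (median 0.34; 2, 4, 4 and 3 higher), led by the repressor Bhlhe40, from 18.2 and 21.4 to 145 and 205 CPM (3.14, SE 0.25, adjusted p = 2.37e-05). Lysosome genes gave 3 rises and 2 falls of 24 (median 0.27; 1 higher in each of the 4 leave-one-out fits and 0, 1, 0 and 0 lower). Cell death genes gave 4 rises and 1 fall of 17 (median 0.11; 1, 1, 3 and 2 higher and 1, 0, 0 and 1 lower). The lysosome and cell death lists had 20.8% and 29.4% of their genes called, near the 23.9% of all genes tested. The survival gene Mcl1 rose from 404 and 426 to 793 and 933 CPM (1.06, SE 0.20, adjusted p = 0.00463; 0.0601 without normoxia replicate 1). Of 6 tested pH regulators only the bicarbonate carrier Slc4a7 was called, a fall of 1.13 lost in all 4 leave-one-out fits (0.0732 to 0.124). Car9, a carbonic anhydrase known as a HIF target in tumour cells, was at 7.77 and 8.38 against 5.31 and 4.77 CPM (-0.68, adjusted p = 0.103; 0.0252 with the 4 libraries alone).

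The response of these macrophages was set beside that of BMDM from co-culture with GL261 cells, from the same count table. There 34.8% of genes were called, and of the 3542 genes called in monoculture 99.2% had the same sign, against 80.8% of all genes. The comparisons share no library, but 1 fit of all 10 libraries set the spread behind both sets of calls. The 3542 genes were therefore not chosen independently of the co-culture libraries. The test of the difference between the effects called none of 14806 genes with edgeR (0%; 636 at an unadjusted p below 0.05), and 9 with DESeq2. Beside glioma cells Adm rose by 7.33 and Egln3 by 4.60, and Arg1 was not called (1.41, with an adjusted p of 0.428); none of these differences from the monoculture passed the test. Whether RNA of GL261 cells contributes to the co-culture libraries was not tested.

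In a separate experiment BMDM received DMSO, with no library in common, and there the replicates stood apart. The 2 normoxic DMSO libraries correlated at 0.963 and the hypoxic ones at 0.942 (Pearson, log2(CPM + 1) across genes), against 0.995 and 0.993 for the monocultures. Normoxic DMSO replicate 1 had 1697 CPM of Arg1, 89.1 of Egln3 and 90.3 of Mki67, where replicate 2 had 2.00, 6.001 and 846. The hypoxic DMSO libraries had 185 and 210.7 CPM of Arg1, below the library labelled normoxic replicate 1. Other genes separated by the oxygen labels. Trib3 was at 16.1 and 16.1 CPM in the normoxic DMSO libraries and at 442 and 338 in the hypoxic ones. For Esam these levels were 0.0705 and 0.303 against 43.4 and 44.6 CPM. Mki67 was lower in replicate 1 in hypoxia too, at 3.58 CPM against 148 in replicate 2. Whether a label of these libraries is wrong was not tested, and the values with DMSO hold only as far as the labels do. The hypoxia comparison with DMSO called 16.4% of 14790 genes (9.84% higher and 6.55% lower). Without normoxic DMSO replicate 1 or 2 it called 7.61% and 7.34%, and without hypoxic DMSO replicate 1 or 2 it called 9.82% and 33.2%. Of 3527 genes called in monoculture and tested there 93.1% had the same sign, and 93.8% of 3539 without normoxic DMSO replicate 1, against 74.4% and 74.2% of all genes; without normoxic DMSO replicate 2 the shares were 88.6% and 71.3%. The value for Arg1 was -2.10 (adjusted p = 0.457) over all 4 libraries, 6.63 (0.0253) without normoxic DMSO replicate 1 and -3.09 (0.0462) without replicate 2. For Egln3 these values were 2.68 (0.105), 5.66 (0.0159) and 1.78 (0.0309). Adm rose by 4.17 over all 4 libraries, by 5.69 without normoxic DMSO replicate 1 and by 3.47 without normoxic DMSO replicate 2. Slc2a1 rose by 3.02, 4.03 and 2.46 in these fits. Vegfa rose by 1.97, 2.92 and 1.41 in the same fits, and by 1.87 without hypoxic DMSO replicate 1. The test of the difference between DMSO and monoculture effects called none of 14790 genes with edgeR (0%; 1345 at an unadjusted p below 0.05), 85 with DESeq2, and 1239 without hypoxic DMSO replicate 2. Vehicle and experiment cannot be told apart here.

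**Figure D4:**
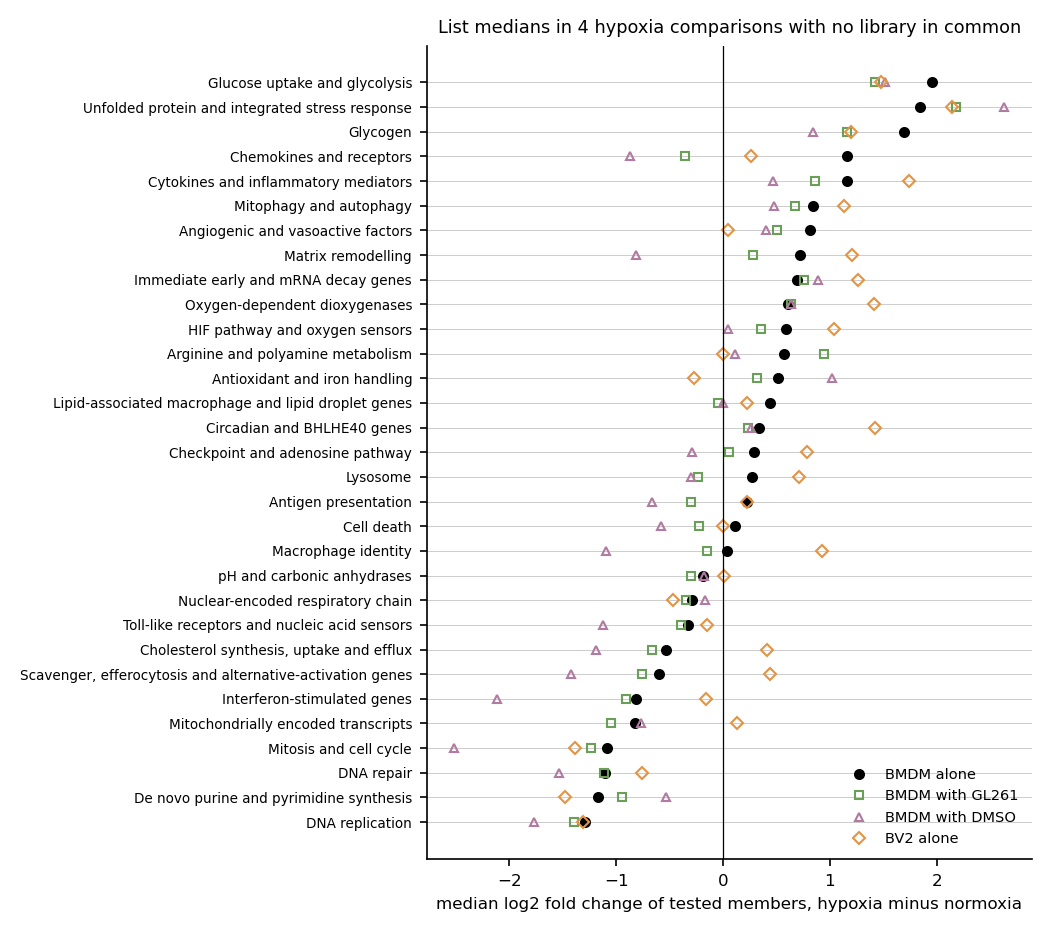
For each gene list, symbols give the median log2 fold change of its tested members, hypoxia minus normoxia, in BMDM alone, BMDM with GL261 cells, BMDM with DMSO and BV2 cells alone. The medians for replication lie between -1.77 and -1.29 and those for the stress response between 1.84 and 2.63 in all 4, while cholesterol genes are at -0.53 in BMDM alone and 0.41 in BV2 cells.

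BV2 cells were compared with the macrophages, each alone. In BV2 monocultures 57.9% of genes were called, and 90.0% of 3517 genes called in BMDM had the same sign, against 70.5% of all genes. The difference itself was called for 4089 of 14728 genes (27.8%), with 2161 more positive in BV2 cells and 1928 more negative. Serum content, table and cell type differ together and cannot be told apart. Fold changes given for BMDM here and in the next paragraph are those of the main fit. The BV2 values and the differences come from the joint fit, so they need not subtract exactly. Slc2a1 rose by 3.99 in BMDM and 3.92 in BV2 cells (difference -0.02, SE 0.17, adjusted p = 0.97), values that did not differ beyond their error. Vegfa rose by 4.48 in BMDM and 3.23 in BV2 cells, and this difference was called (-1.21, adjusted p = 0.000413).

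Several genes that rose in the macrophages did not rise in BV2 cells. Pfkfb3, with 3.77 in BMDM, was at 0.03 in BV2 cells (difference -3.70, adjusted p = 9.21e-08). Cd86, with 3.47 in BMDM, was at -0.27 (difference -3.70, adjusted p = 7.47e-08), and Cd274 rose less, by 0.74 (difference -2.60, adjusted p = 5.91e-05). In normoxia Cd86 was higher in BV2 cells, at 34.5 and 39.0 CPM against 6.52 and 5.18 in BMDM (joint fit). In hypoxia its levels were 27.3 and 33.5 CPM in BV2 cells and 63.7 and 62.8 in BMDM. Odc1 went in opposite directions, 1.16 in BMDM and -2.25 in BV2 cells (difference -3.36, adjusted p = 9.84e-08). The reverse held for Axl (-1.35 in BMDM, 1.00 in BV2 cells, adjusted p = 1.41e-05) and Col4a1 (-1.13 and 1.72, adjusted p = 1.28e-06). Cdkn1a, with 0.84 in BMDM, rose by 3.76 in BV2 cells (difference 2.96, adjusted p = 7.32e-08). By list, the difference was called more positive in BV2 cells for 18 of 30 cholesterol genes and more negative for 2, and more negative for 12 of 24 vessel growth genes and more positive for 1. For DNA replication it was called in 5 of 35, Tyms, Rrm2 and Mcm5 not among them.

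**Figure D5:**
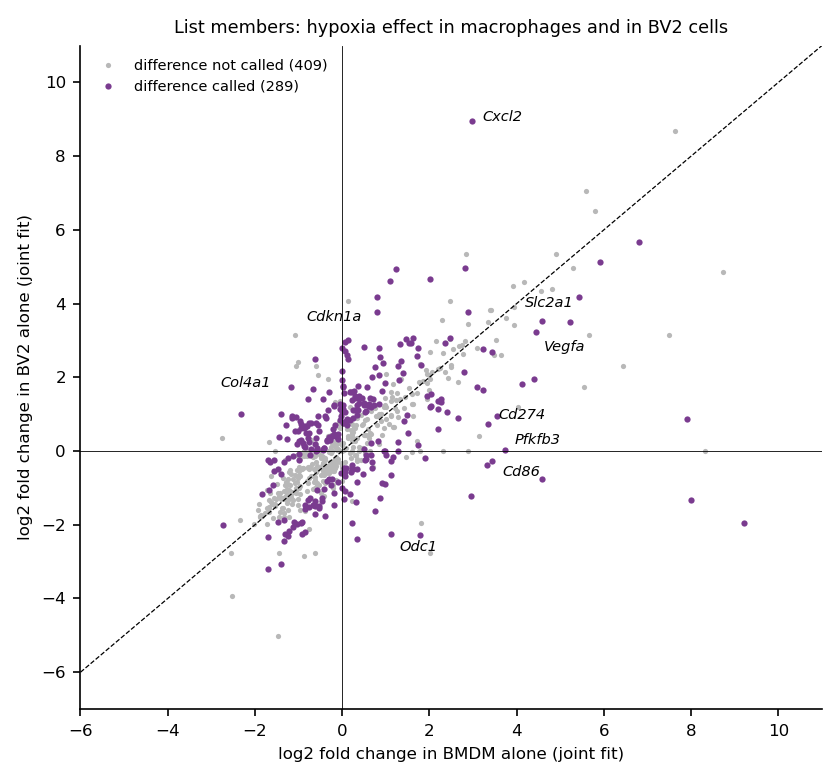
Each point is a list member tested in the joint fit of BMDM and BV2 monocultures, with its log2 fold change (hypoxia minus normoxia) in BMDM on the horizontal and in BV2 cells on the vertical axis; purple points are the 289 genes whose difference was called and the dashed line marks equal change. Pfkfb3 and Cd86 lie near 0 for BV2 cells, Odc1 below 0, and Slc2a1 on the line.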

How the data were processed

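Poly(A) RNA from 10 BMDM libraries (4 of monocultures, 6 of co-cultures), 4 of BMDM with DMSO and 4 of BV2 monocultures was used. The deposited values are raw counts per gene, made by the authors with Trimmomatic 0.36, STAR 2.6, SAMtools and HTSeq 0.9.1 on mm10, per the submitters' processing notes; the annotation and strand setting of the counting are not given in the sources used here. Coordinates and gene names come from the files' identifiers matched to the mouse annotation (55141 of 55487 rows).

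The members and gene lists were chosen with earlier results of these data known. Counts were filtered with edgeR 4.0.16 (filterByExpr at a minimum count of 10 and a total of 15) in R 4.3.3, scaled with TMM factors and tested with the quasi-likelihood F test, with Benjamini-Hochberg adjustment at 0.05. One fit of the 10 libraries of BMDM monocultures and co-cultures gave the main comparison, and joint fits of 8 libraries gave the differences from DMSO and BV2 cells. CPM values are scaled with TMM factors, except the sums of marker lists. SE is the absolute log2 fold change divided by the square root of the F statistic. It is approximate, most of all where a group is near 0 counts. The test was checked on simulated data. Recovery of a set share of changed genes was required there for the main comparison and the difference from BV2 cells. It was not required for the differences from co-culture and DMSO, so the lack of calls there does not show equal effects. Named genes were the 8 largest rises and falls among called genes whose mean log2 CPM reached 4, up to 3 rises and 3 falls in each list, a fixed panel, and the 3 largest differences each way; the other genes named were picked after their values were seen. A few genes of the panel and lists are not reported here singly. Shared words are 75-base words of a gene's transcripts found in other genes. Not every share is given above: among others it was 11.4% for Kdm2b, 9.97% for Psmb8, 7.05% for Cdkn1a and 5.06% for Plod2. Alternatives were DESeq2 1.42.0, other scalings and filters, a replicate block, the 4 monoculture libraries alone and each library left out. Intervals and floors cover counting error only.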

Additional observations from a re-analysis of the deposited data

Results flagged for a closer look

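The test of the difference between the hypoxia effects in BV2 cells and in BMDM, both alone, singled out 6 genes as the largest differences each way among genes of sufficient level. In each of them a group was at or near 0 counts, so the fitted difference depends on the prior count and is no measure of size. The chemokine gene Cxcl2 had a fitted log2 difference of 5.99 (adjusted p = 0.00054), with BV2 cells at 0 and 0 CPM in normoxia and 3.38 and 3.36 in hypoxia. In BMDM it also rose, at far higher levels, from 47.6 and 63.9 to 424.5 and 445 CPM. Ms4a14, a membrane protein gene, had 5.19 (adjusted p = 4.29e-05), with 0 and 0.121 against 4.71 and 7.35 CPM in BV2 cells. Its BMDM levels were 31.5 and 43.1 against 89.4 and 99.1 CPM. Prkcb, a protein kinase C gene, had 4.87 (adjusted p = 4.52e-06), with 0.0381 and 0.121 against 4.43 and 3.15 CPM in BV2 cells. Its BMDM levels were 48.0 and 54.1 against 78.8 and 76.9 CPM. In the other direction Stc2 had -7.03 (adjusted p = 0.000921), where BMDM were at 0 in normoxia and at 1.06 and 2.16 CPM in hypoxia, and BV2 cells went from 22.2 and 27.6 to 42.0 and 49.4. Sdk2, an adhesion molecule gene, had -4.78 (adjusted p = 0.0331), with BMDM at 0 in normoxia and BV2 cells at 31.4 and 28.2 CPM there. Endod1, a nuclease domain gene, had -4.58 (adjusted p = 0.0133), falling in BMDM from 108 and 114 to 62.0 and 57.6 CPM, while BV2 cells held at most 0.362 CPM in any library.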

How the results depend on the processing

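With DESeq2, its size factors, library totals, filters at 1 count and at a mean CPM of 5, or with a co-culture library left out, the number of genes called in BMDM alone stayed within 1.5 times of 3542. The 4 monoculture libraries alone called 6289, and with 1 library left out the number ranged from 1288 to 4188. Of 158 tested named genes 138 were called, and no direction of a called gene reversed. DESeq2 gave no adjusted p for Mmp12 and Mmp13, which are not counted as lost. Between 47 and 56 of the 138 calls were lost without 1 of the 4 monoculture libraries. For the difference between co-culture and monoculture, DESeq2 called 9 genes and the filter at 1 count 128, and leaving 1 library out gave 0 to 1. For the difference between DMSO and monoculture these were 85, 783, and 0 to 1239. For BV2 cells against BMDM no alternative moved the 4089 genes by over 1.5 times. The cause was not tested.

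Replicate numbers are shared between the groups, but the labels do not say that a number marks a shared animal, culture or day. The deviations of same-numbered hypoxic and normoxic monocultures correlated at 0.301, with 2 pairs that mirror each other. Those of the co-cultures correlated at 0.595, 0.295 and 0.408, and those of normoxic co-cultures and monocultures at 0.33 and 0.372, while hypoxic co-cultures and monocultures gave -0.0544 and -0.0363. The 2 pairs of the monocultures are too few to show from the data that the numbers pair them. The replicate block called 4168 genes in the shared fit and 7142 in the 4 libraries alone. Both differences that called 0 genes also called 0 with the block, and that from BV2 cells called 5423. Depth limits genes near the floor of 3 counts, and 2 libraries a group limit the estimate of spread.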

Other observations

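Gene families outside the lists are described here for BMDM alone. They were picked after their values were seen and were not tested as groups. Over all genes tested 13.3% were called higher and 10.6% lower. Of 57 tested core and linker histone genes 17 were higher in hypoxia and none lower (median log2 fold change 0.66). Hist1h2bc went from a mean of 27.7 to 193 CPM (2.80) and Hist1h1c from 112 to 556 (2.31). Histone genes are near-identical copies, so their single levels are uncertain. Poly(A) histone transcripts made up 0.0248% and 0.0238% of counts in normoxia and 0.0925% and 0.0793% in hypoxia, beside the fall of replication genes.

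Of 77 mitochondrial ribosomal protein genes 20 were lower and 1 higher (median -0.43). Mrpl16 fell by 1.29 and Mrpl12 by 1.04 on the log2 scale, and Mrpl24 was the gene that rose. Of 28 RNA polymerase subunits 7 were lower and none higher (median -0.17), with the largest falls in the polymerase I subunits Polr1b (-1.29) and Polr1a (-1.28). Of 20 dual-specificity phosphatases, taken by gene symbol and only in part phosphatases of MAP kinases, 11 were higher and 2 lower (median 1.09). Dusp5 rose by 2.22 and Dusp1 by 1.13, while Dusp6 fell by 1.14 on the log2 scale. Of 20 vacuolar ATPase subunits 7 were higher and none lower (median 0.36), among them Atp6v1a (1.15).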
